A study of Homo sapiens with 6 samples.

Results

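The genes described here are 9 antigens and antigen-linked phosphatases of mature B cells, MS4A1, CD52, CD22, CD72, PTPRC, PTPN6, CR2, FCER2 and CD24, out of 56584 gene symbols named in the deposited tables. A table row was taken for a gene when the gene's symbol stood alone or among the comma-separated names of that row, and each of the 9 had a row in every library. Messenger RNA was sequenced from 2 immortalized human lymphoma B cell lines, 3 libraries each. LY19Y646F is labelled as expressing EZH2-Y646F constitutively under a CMV promoter, and LY19WT as carrying wild-type EZH2. EZH2 is the methyltransferase of Polycomb repressive complex 2, and Y646F is an activating change of its catalytic domain found in lymphomas. Both lines were grown untreated in RPMI with serum and used at passages 10 to 15. The CMV promoter is not the promoter that drives EZH2 in B cells, and the labels do not say whether either line is a single clone. Nor do they tell whether each library was made from its own culture, and each p-value below therefore rests on a spread that may be technical.

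Mature B cells carry surface proteins that tune signals from the antigen receptor. CD22 and CD72 are inhibitory receptors whose cytoplasmic tyrosine motifs, once phosphorylated, recruit SHP-1, the phosphatase encoded by PTPN6, while CD45, the phosphatase encoded by PTPRC, removes an inhibitory phosphate from Src family kinases. MS4A1 encodes CD20 (rituximab), CD52 encodes the antigen of alemtuzumab and CD22 that of inotuzumab ozogamicin, so these transcripts are also of interest for antibody therapy.

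Levels are given in FPKM, fragments scaled to transcript length and to the mapped total, which allows levels of different genes to be set side by side per length. Read totals per library are not given in the sources used here, so no counting error could be attached to a level. Pearson's r of log2(FPKM + 1) between libraries, across tested genes that are not independent, was 0.865 to 0.926 within a line and 0.733 to 0.772 across the lines. Replicate 1 stood apart from the other replicates in both lines, and its deviation went with the GC content of the transcript. The 10 highest rows held 27.5% of summed FPKM in LY19WT replicate 3 and 5.71% to 9.38% in the other 5 libraries. A listed 0 need not mean a low level: BLNK, an adaptor of B cell signalling, stood at 0 in LY19WT replicate 2 and at 23.5 and 23.6 FPKM in the other LY19WT libraries, and YES1, a broadly expressed kinase, at 0 in all 6. EZH2 itself ranged from 70.2 to 93.5 FPKM in LY19Y646F libraries and from 60.6 to 76.5 FPKM in LY19WT libraries, and gene-level values cannot separate introduced from native transcripts.

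The labelled cell type was checked against 9 B cell markers. All 9 averaged at least 1 FPKM in LY19Y646F and 8 of 9 did in LY19WT, where MS4A1 was the exception. CD22, MS4A1 and CD72 are among these markers and among the genes described below, so the check is not independent of those results. The 7 precursor B cell markers summed to 86.4 to 87.2 FPKM in LY19Y646F libraries, nearly all of it MME, against 830 to 2391 FPKM in LY19WT libraries, which also held DNTT, RAG1, RAG2, VPREB1 and IGLL1. The other markers of that list did not go this way. MME averaged 83.4 FPKM in LY19Y646F and 56.2 FPKM in LY19WT, and CD34 averaged 0.0156 and 0.00257 FPKM. The 7 myeloid markers summed to 0.655 to 0.972 FPKM in LY19Y646F and to 15.4 to 21.7 FPKM in LY19WT, mainly LYZ and CD33. The 8 T cell markers summed to 16.5 to 23.2 FPKM in LY19Y646F and to 12.7 to 15.6 FPKM in LY19WT, mostly TRAC. NK cell, erythroid and stromal or epithelial markers summed to at most 0.854, 0.0834 and 0.201 FPKM in LY19Y646F and at most 2.60, 0.328 and 0.840 FPKM in LY19WT. The lines also differed in the immunoglobulin variable segments they expressed: IGHV3-23 ranged from 4523 to 6529 FPKM in LY19Y646F and from 0.381 to 1.70 FPKM in LY19WT, and IGLV1-40 from 0 to 0.0803 FPKM in LY19Y646F and from 298 to 428 FPKM in LY19WT. The part of these differences in the results below was not tested. With 1 line per genotype, the EZH2 construct and any other difference between the lines cannot be told apart, and whether both lines derive from the same cells was not tested. Nor can fewer cells expressing a gene be told apart from less RNA per cell.

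The promoter windows of the 4 antigen genes whose change passed the test in rows of their own are shown because these genes differed in the size and direction of their change. The letters are the 250 bases before the first annotated start, from RefSeq on GRCh38.p14, written 5′ to 3′ along the gene, and windows were matched for 8 of the 9 genes. Capitals mark GAGGAAG, the core of purine boxes bound by ETS factors such as PU.1, or CAGGTG, an E-box of the kind bound by E2A, on either strand.
PTPRC (chr1:198638790-198639039, plus strand): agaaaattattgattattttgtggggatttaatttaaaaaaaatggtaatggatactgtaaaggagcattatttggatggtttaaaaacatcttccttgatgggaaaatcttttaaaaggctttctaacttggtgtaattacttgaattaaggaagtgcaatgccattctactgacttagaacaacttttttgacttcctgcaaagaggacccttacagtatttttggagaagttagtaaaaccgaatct
PTPN6 (chr12:6946327-6946576, plus strand): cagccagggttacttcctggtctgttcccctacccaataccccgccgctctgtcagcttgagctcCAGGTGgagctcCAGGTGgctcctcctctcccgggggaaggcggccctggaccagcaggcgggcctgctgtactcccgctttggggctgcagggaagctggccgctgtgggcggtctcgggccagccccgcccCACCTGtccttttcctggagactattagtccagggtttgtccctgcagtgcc
CD72 (chr9:35618414-35618663, minus strand): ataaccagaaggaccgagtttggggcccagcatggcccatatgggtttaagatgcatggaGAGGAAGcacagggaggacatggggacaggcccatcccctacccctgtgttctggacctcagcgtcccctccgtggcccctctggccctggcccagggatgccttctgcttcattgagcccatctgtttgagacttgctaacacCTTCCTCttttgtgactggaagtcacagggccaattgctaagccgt
CD52 (chr1:26317708-26317957, plus strand): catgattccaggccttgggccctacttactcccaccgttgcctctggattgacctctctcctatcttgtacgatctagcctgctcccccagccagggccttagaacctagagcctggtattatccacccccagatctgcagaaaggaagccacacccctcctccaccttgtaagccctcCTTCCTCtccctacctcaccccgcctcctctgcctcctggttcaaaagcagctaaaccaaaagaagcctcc
The PTPRC window held 31.2% GC and 1 CpG, against a median of 58% GC and 11 CpG over 35116 windows of the same length, while the PTPN6, CD72 and CD52 windows held 66.4%, 57.2% and 56.4% GC with 10, 4 and 3 CpG. GAGGAAG occurred once in the CD52 window, 71 bases before the start, and at 190 and 46 bases before the CD72 start. It occurs in 11.2% of all windows. CAGGTG occurred at 185, 173 and 52 bases before the PTPN6 start and is found in 17.5% of all windows. A palindromic EBF1-type site occurred at 157 bases before the PTPN6 start and is found in 1.06% of all windows. Both PTPN6 results are for the window printed above. A later PTPN6 window (chr12:6951106-6951355, 59.6% GC, 8 CpG) held neither CAGGTG nor the EBF1-type site. The octamer ATTTGCAT, in 1.63% of all windows, was in none of the 12 windows of the 8 genes. These matches describe letters only, and which start the lines use was not measured.

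The main comparison asked whether the antigen transcripts differed between the lines, including those that therapeutic antibodies bind. MS4A1 was abundant in LY19Y646F and close to 0 in LY19WT, PTPRC was 21.4-fold higher in LY19Y646F by mean FPKM, and PTPN6 and CD72 were higher by smaller steps. CD52 was lower in LY19Y646F, while CD22 was expressed in both lines and its difference did not pass the test. CR2 and FCER2 were at or near 0 in both lines, and CD24 was not measurable. The test was limma on log2(FPKM + 1), LY19Y646F minus LY19WT, with Benjamini-Hochberg adjustment over all tested genes and a threshold of 0.05. Among the 4 members tested in rows of their own, 3 were called higher and 1 lower. Of all 10749 genes tested there, 33.1% were called, 16.7% higher and 16.4% lower, so a call in either direction was common between these lines. Of MS4A1 and CD22, which share a row with another protein-coding gene in at least 1 library, 1 was called higher in the fit that counts such merged rows, where 26.1% of 17420 genes were called, 13.2% higher and 13.0% lower. The libraries of the 2 lines did not overlap for any of these 6 genes, as for 48.5% of genes in rows of their own and 44.7% with merged rows. For each member other than CD24 the exact two-sided permutation p was 0.10, the smallest that 3 libraries against 3 allow.

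**Figure D1:**
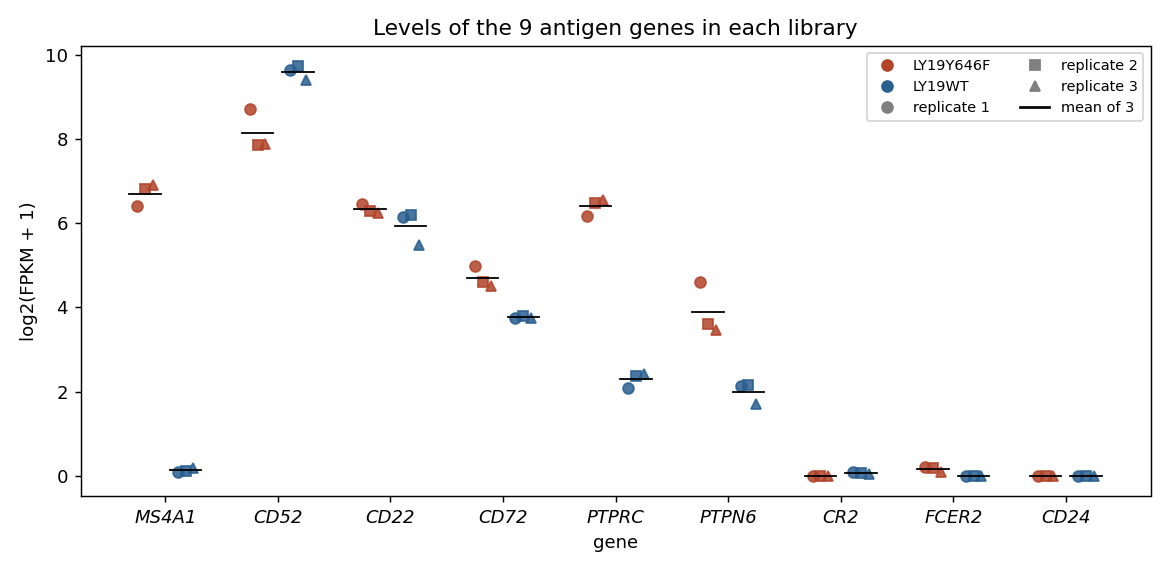
Level of each gene in each library, on the log2(FPKM + 1) axis, with LY19Y646F (red) left of LY19WT (blue), a symbol per replicate and a bar at the mean of 3. MS4A1 and PTPRC separate the lines most widely, CD52 is the single abundant gene that is lower in LY19Y646F, and CR2, FCER2 and CD24 lie at or near 0 in all libraries.

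Among the antigens targeted in therapy, MS4A1 (hg19 chr11:60223225-60238233) showed the widest separation. Its tetraspanning product CD20 is a hallmark of mature B cells and is lost as they become plasma cells. MS4A1 measured 83.1, 110 and 118 FPKM in LY19Y646F libraries, against 0.0688, 0.0880 and 0.140 FPKM in LY19WT libraries. All 3 LY19Y646F libraries were high, and each LY19WT value had a Cufflinks 95% interval that began at 0 and ended at 0.280, 0.312 or 0.352 FPKM. The means were 104 ± 18.5 FPKM in LY19Y646F and 0.0990 ± 0.0369 FPKM in LY19WT (SD, n = 3 each). The log2 change was 6.56 (SE 0.18, 95% interval 6.11 to 7.02), with a limma adjusted p of 4.51e-05. Its size depends on the constant added, since LY19WT is near 0, and was 9.03 with 0.1 FPKM added in place of 1. In LY19Y646F replicates 2 and 3 the row also names MS4A5, a neighbouring gene of the same family, and spans 60197062 to 60238233. MS4A1 stood in a row of its own in LY19Y646F replicate 1, at 83.1 FPKM, and MS4A5 was listed at 0 in each of the 4 libraries where it had a separate row. Without LY19Y646F replicate 1 or any other single library the change stayed between 6.46 and 6.71. MS4A1 is not in the authors' deposited table as used here. Among the 16 genes of the MS4A family, 2 were tested with merged rows counted, MS4A1, which was called, and MS4A5, which was not. MS4A5 reached the level for testing only through the rows it shares with MS4A1, so it was not measured apart.

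CD52 (hg19 chr1:26644448-26647014) went the other way. It encodes a very short glycopeptide held in the membrane by a glycosylphosphatidylinositol (GPI) anchor. CD52 measured 414, 229 and 234 FPKM in LY19Y646F libraries, against 788, 841 and 668 FPKM in LY19WT libraries. Every LY19Y646F library lay below every LY19WT library, and replicate 1 was the highest of the LY19Y646F libraries. The means were 292 ± 105 FPKM in LY19Y646F and 766 ± 88.6 FPKM in LY19WT (SD, n = 3 each), a log2 change of -1.44 (SE 0.26, 95% interval -2.10 to -0.78, limma adjusted p of 0.0106). CD52 thus remained the most abundant of the 9 genes in both lines, leaving aside CD24, which was not measurable. Leaving out 1 library at a time gave changes from -1.71 to -1.29, and the highest adjusted p was 0.0481.

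CD22 (hg19 chr19:35810164-35838258), the sialic acid-binding inhibitory receptor, was present in both lines. CD22 measured 87.0, 77.5 and 73.9 FPKM in LY19Y646F libraries, against 69.8, 71.8 and 43.8 FPKM in LY19WT libraries. The lowest LY19Y646F library lay just above the highest LY19WT library, and LY19WT replicate 3 was the low one. The means were 79.5 ± 6.74 FPKM in LY19Y646F and 61.8 ± 15.6 FPKM in LY19WT (SD, n = 3 each). The log2 difference of 0.39 (SE 0.22) did not pass, with a limma adjusted p of 0.28, and its 95% interval ran from -0.18 to 0.95. The row also names MIR5196 and U62631.5 in all 6 libraries, and in LY19Y646F replicate 1 it names FFAR1, a fatty acid receptor gene whose own rows held at most 0.225 FPKM elsewhere. CD22 is not in the authors' deposited table as used here.

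CD72 (hg19 chr9:35609530-35646807) encodes a C-type lectin that inhibits antigen receptor signalling through SHP-1. CD72 measured 30.8, 23.2 and 21.7 FPKM in LY19Y646F libraries, against 12.5, 12.9 and 12.4 FPKM in LY19WT libraries. All LY19Y646F libraries were higher, and the LY19WT libraries hardly varied. CD72 averaged 25.2 ± 4.87 FPKM in LY19Y646F and 12.6 ± 0.238 FPKM in LY19WT (SD, n = 3 each). Its log2 change was 0.93 (SE 0.16, 95% interval 0.54 to 1.32), with a limma adjusted p of 0.00768.

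PTPN6 (hg19 chr12:7055631-7070479), whose product SHP-1 acts downstream of both inhibitory receptors, was higher as well. PTPN6 measured 23.1, 11.1 and 10.0 FPKM in LY19Y646F libraries, against 3.35, 3.44 and 2.25 FPKM in LY19WT libraries. The groups did not overlap, but LY19Y646F replicate 1 was 2.19 times the mean of the other LY19Y646F replicates. The means were 14.7 ± 7.26 FPKM in LY19Y646F and 3.02 ± 0.660 FPKM in LY19WT (SD, n = 3 each), a log2 change of 1.89 (SE 0.35, 95% interval 1.02 to 2.77, limma adjusted p of 0.0108). Without LY19Y646F replicate 1 the change was 1.54, the smallest with any 1 library left out, and the highest adjusted p over those fits was 0.0466.

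PTPRC (hg19 chr1:198607801-198726545) encodes CD45, the common leukocyte antigen, a receptor-type phosphatase on all nucleated blood cells. PTPRC measured 70.6, 87.9 and 92.6 FPKM in LY19Y646F libraries, against 3.21, 4.17 and 4.36 FPKM in LY19WT libraries. Each LY19Y646F library was far above every LY19WT library. The means were 83.7 ± 11.6 FPKM in LY19Y646F and 3.92 ± 0.617 FPKM in LY19WT (SD, n = 3 each). The log2 change was 4.11 (SE 0.16, 95% interval 3.70 to 4.52), with a limma adjusted p of 5.02e-05. The values are per gene, so the CD45 isoforms that differ by exons near the amino terminus were not separated.

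CR2 (hg19 chr1:207627575-207663240) encodes CD21, a complement receptor that Epstein-Barr virus uses for entry. CR2 was listed at 0 in all 3 LY19Y646F libraries, against 0.0674, 0.0495 and 0.0369 FPKM in LY19WT libraries. FCER2 (hg19 chr19:7753644-7767032) encodes CD23, the low-affinity receptor for IgE. FCER2 measured 0.149, 0.142 and 0.0605 FPKM in LY19Y646F libraries, and it was listed at 0 in all 3 LY19WT libraries. Cufflinks gave each value above 0 of either gene an interval that began at 0, except FCER2 in LY19Y646F replicate 1, whose interval was 0.0250 to 0.273 FPKM. Both genes fell below the mean of 0.5 FPKM required for the test. With no such filter, limma gave adjusted p-values of 0.0165 for CR2 and 0.0311 for FCER2 among 24804 genes, 18.1% of which were called, on differences of -0.07 and 0.16. No fold change is given against a line listed at 0.

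CD24, a GPI-anchored sialoglycoprotein and a ligand of Siglec-10, had a single row in each table, placed on the patch contig HG357_PATCH, and was listed at 0 in all 6 libraries. All 5408 rows on patch or haplotype contigs were at 0 in every library, while 50% to 55.7% of other rows were above 0. The 0 therefore cannot be read as a level of CD24. PTPRC and PTPN6 also have such a copy at 0 beside the row used.

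**Figure D2:**
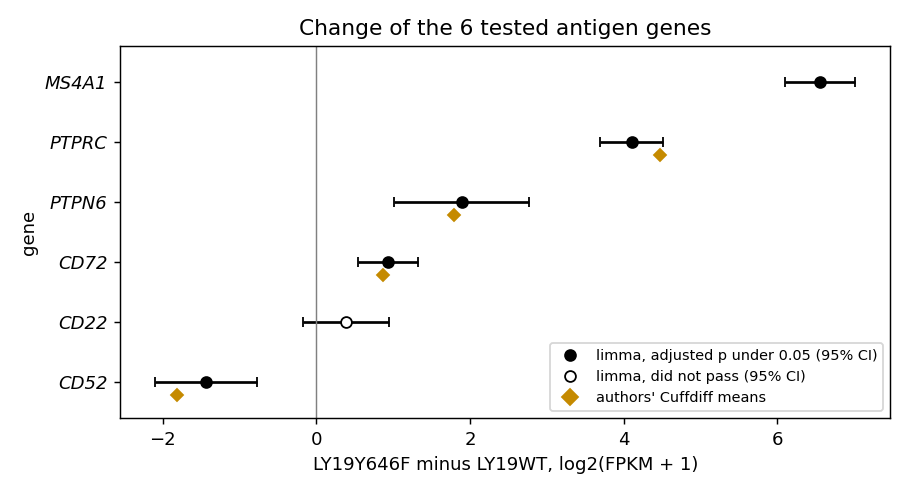
Change of the 6 tested genes, LY19Y646F minus LY19WT, on the log2(FPKM + 1) axis, with limma estimates as circles (open where the test did not pass), bars for 95% intervals and diamonds for the authors' Cuffdiff means on the same scale, where their table has the gene. MS4A1 at 6.56 and PTPRC at 4.11 lie farthest from 0, CD52 at -1.44 is the only gene left of it, and the CD22 interval spans 0.

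The order of levels, with CD24 left out as not measurable, differed between the lines. In LY19Y646F, CD52 was highest, followed by MS4A1, PTPRC and CD22, whose libraries overlapped from each to the next, then by CD72 and PTPN6, which also overlapped, and FCER2 near 0. In LY19WT, CD52 was again highest, followed by CD22, CD72, the overlapping pair PTPRC and PTPN6, and MS4A1 near 0. MS4A1 was thus second in LY19Y646F and sixth in LY19WT by mean FPKM per length. CD22 and CD72 kept their order in both lines, at 79.5 and 25.2 FPKM in LY19Y646F and 61.8 and 12.6 FPKM in LY19WT.

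The authors' deposited table holds mean FPKM per line for 4 of the 9 genes, with no error. It gives PTPRC 148 FPKM in LY19Y646F and 5.74 FPKM in LY19WT, a log2 fold change of 4.69 in the authors' deposited table. Those PTPRC means are 1.77 and 1.47 times the means of the library tables for LY19Y646F and LY19WT. For PTPN6 the authors' deposited table gives 16.0 and 3.92 FPKM (log2 fold change 2.03), and for CD72 23.7 and 12.6 FPKM (0.92), in LY19Y646F and LY19WT. For CD52 the authors' deposited table gives 241 FPKM in LY19Y646F and 846 FPKM in LY19WT, a log2 fold change of -1.81. That CD52 row spans chr1:26560678-26647933, against 26644448-26647014 in the library tables. The authors' rows of PTPRC, CD72 and PTPN6 are also wider than their library rows. Whether these values include reads of neighbouring genes was not tested. With that limit, all 4 directions were those of the library tables.

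Replicate 1 of both lines differed from the other replicates in a way that touched these genes. Across 8863 tested genes with a known transcript GC content, 82.5% of all tested, Spearman's rho between GC and the log2 ratio of replicate 1 to replicates 2 and 3 was 0.437 in LY19Y646F and 0.435 in LY19WT. These genes are not independent replicates, and between the lines themselves the rho with GC was -0.0817. MS4A1 and PTPRC, with 37.9% and 38.2% GC the most AT-rich of the 9, were lower in replicate 1 in both lines: the ratio was 0.727 and 0.782 in LY19Y646F, and 0.603 and 0.753 in LY19WT. The MS4A1 ratio in LY19WT is of values near the floor, 0.0688 FPKM against a mean of 0.114 FPKM, and says little by itself. The GC-richer PTPN6 (59.5%), CD72 (56.4%), CD22 (55.2%) and CD52 (52.4%) had ratios of 2.19, 1.37, 1.15 and 1.79 in LY19Y646F and of 1.18, 0.988, 1.21 and 1.04 in LY19WT. Without replicate 1 of either line the log2 changes were 6.69 for MS4A1, 4.11 for PTPRC, 1.60 for PTPN6, 0.78 for CD72, -1.69 for CD52 and 0.43 for CD22, and no call changed.

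**Figure D3:**
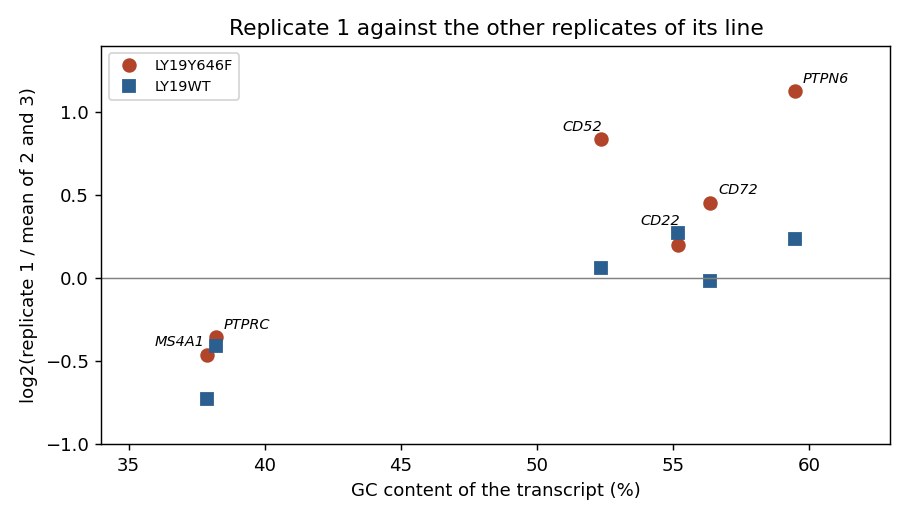
Log2 ratio of replicate 1 to the mean of replicates 2 and 3 of its line, against the GC content of the transcript in %, for the 6 tested genes in LY19Y646F (red circles) and LY19WT (blue squares). MS4A1 and PTPRC lie below 0 in both lines, and PTPN6 and CD52 lie highest in LY19Y646F, at ratios of 2.19 and 1.79. The LY19WT point of MS4A1 is a ratio of levels near the floor.

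Genes that work with the antigens were then examined in lists drawn from general knowledge, but chosen with earlier results of these data known. Of 132 listed genes, 59 were tested in rows of their own, 21 were called higher and 10 lower, and their median log2 change was 0.42 beside -0.03 for all tested genes. The counts below are descriptions beside the background of 16.7% higher and 16.4% lower. Listed genes with a shared or failed row in some library are given, where named, with merged rows counted. In that fit the background was 13.2% higher and 13.0% lower. Such values can include reads of other genes in the row, so they are not levels of the named gene alone.

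Src family kinases and CD45 partners were mostly higher in LY19Y646F, 5 of 7 tested, with 1 lower and a median change of 1.28. BLK, a B cell Src kinase, measured 34.3, 26.4 and 25.6 FPKM in LY19Y646F libraries, against 0.0362, 0.00904 and 0 FPKM in LY19WT libraries (limma adjusted p of 2.85e-05). FGR, another Src kinase, averaged 11.7 ± 3.41 FPKM in LY19Y646F and 0.0310 ± 0.0382 FPKM in LY19WT (SD, n = 3 each), with a limma adjusted p of 1.84e-04. LYN, which phosphorylates the inhibitory motifs of CD22 and CD72, rose by 1.06 (limma adjusted p of 0.00202). PTPRJ, which encodes CD148, a receptor phosphatase that shares the Src substrate site with CD45, averaged 4.87 ± 0.421 FPKM in LY19Y646F and 1.42 ± 0.105 FPKM in LY19WT (SD, n = 3 each; limma adjusted p of 0.00112). PTPRE, a related phosphatase, was lower, at 2.19 ± 0.297 FPKM in LY19Y646F and 11.4 ± 0.161 FPKM in LY19WT (limma adjusted p of 2.10e-04). LCK was left out of the main fit for a shared or failed row. Over the rows that name it, LCK stood at 319, 44.4 and 57.5 FPKM in LY19Y646F libraries. In LY19WT libraries it stood at 0.490, 0.251 and 0.230 FPKM. Its reads were not separated from those of other genes in such rows.

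Of 8 tested phosphatases and adaptors beside SHP-1, 1 was higher and 1 lower, with a median change of 0.26. PTPN11, which encodes SHP-2, was higher by 0.51, at 107 ± 13.1 FPKM in LY19Y646F and 75.1 ± 7.97 FPKM in LY19WT (SD, n = 3 each; limma adjusted p of 0.0408), but that call was lost without any of 5 libraries, with adjusted p up to 0.123 and changes of 0.42 to 0.55 in those fits. The 1 library whose omission kept it was LY19Y646F replicate 1. With merged rows counted, 12 genes of the list were tested, and 1 was higher and 2 lower. PTPN11 was not the higher 1 in that fit and did not pass (limma adjusted p of 0.0549). PAG1, an adaptor that recruits CSK to the membrane, fell by 1.53 on the log2 scale (limma adjusted p of 0.00236). CSK, the kinase that adds the phosphate CD45 removes, measured 135, 44.9 and 48.2 FPKM in LY19Y646F libraries and 50.7, 23.2 and 18.9 FPKM in LY19WT libraries. Replicate 1 was highest in both lines, and the difference did not pass (limma adjusted p of 0.17), though it did without replicate 1 of both lines (0.015). The CSK difference also passed with library weights (0.035) and with replicate number as a block (0.012). A correction for GC content gave 0.00153, and 0.00725 with the block. It did not pass with any 1 library left out (0.111 to 0.375). PTPN22, a CSK partner, measured 10.0, 24.8 and 0 FPKM in LY19Y646F libraries and was listed at 0 in LY19WT, and it passed only without LY19Y646F replicate 3 (limma adjusted p of 0.00479) and with library weights (0.0427).

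Inhibitory receptors other than the members were mostly below the level for testing. Of the 2 tested, SIGLEC10, a sialic acid-binding receptor and partner of CD24, measured 13.3, 18.5 and 14 FPKM in LY19Y646F libraries, against 0.308, 0.236 and 0.240 FPKM in LY19WT libraries (limma adjusted p of 6.63e-05). LAIR1, a collagen receptor, measured 2.63, 0.650 and 0.719 FPKM in LY19Y646F libraries, against 112, 63.7 and 83.4 FPKM in LY19WT libraries (limma adjusted p of 3.93e-04). The pair thus moved in opposite directions. FCGR2B, the inhibitory Fc receptor, was left out of the main fit for a shared or failed row. It was lower with merged rows counted, with a change of -1.75 (limma adjusted p of 0.00174).

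Among other antigens targeted in lymphoma therapy, 5 of 11 tested were higher and 2 lower, with a median change of 0.68. CD37, a tetraspanin, measured 130, 96.9 and 98.7 FPKM in LY19Y646F libraries, against 5.22, 0 and 4.02 FPKM in LY19WT libraries (limma adjusted p of 0.00453). CD40, a costimulatory receptor, averaged 16.7 ± 3.52 FPKM in LY19Y646F and 0.715 ± 0.305 FPKM in LY19WT, and CD79B, a signalling chain of the antigen receptor, averaged 309 ± 29.8 FPKM in LY19Y646F and 160.1 ± 18.6 FPKM in LY19WT (SD, n = 3 each; limma adjusted p of 2.36e-04 and 0.00350). CD38, an ectoenzyme targeted in myeloma, was lower, at 10.4 ± 0.851 FPKM in LY19Y646F and 28.3 ± 2.99 FPKM in LY19WT (limma adjusted p of 8.85e-04). The other calls were TNFRSF13B and CXCR4, higher by 0.68 and 0.52 (limma adjusted p of 0.0308 and 0.00637), and CD47, with a change of -0.66 (0.0119). The TNFRSF13B call was lost without LY19Y646F replicate 2 or any 1 of the LY19WT libraries, with adjusted p up to 0.0758. CD79A, the partner of CD79B, measured 319, 80.3 and 65.0 FPKM in LY19Y646F libraries and 94.0, 30.6 and 52.2 FPKM in LY19WT libraries, with replicate 1 highest in both lines. Its difference of 1.14 did not pass (limma adjusted p of 0.30), and was 0.43 without LY19Y646F replicate 1. With merged rows counted, 15 genes of this list were tested, and 7 were higher and 2 lower.

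GPI anchor synthesis genes, which make the anchor that CD52 and CD24 carry, moved both ways: 4 of 14 tested were higher and 2 lower, with a median change of 0.14. PIGM, a mannosyltransferase, measured 0.566, 0.638 and 0.692 FPKM in LY19Y646F libraries, against 7.09, 7.45 and 7.75 FPKM in LY19WT libraries (limma adjusted p of 9.62e-05). PIGH, a subunit of the enzyme of the initial step, was higher by 1.49 (limma adjusted p of 3.92e-04), and PIGC, of the same enzyme, was lower, with a change of -0.60 (0.0240), a call lost without LY19Y646F replicate 2 or 3 or LY19WT replicate 2 or 3, with adjusted p up to 0.0829. PIGF measured 3.07, 13.8 and 12.0 FPKM in LY19Y646F libraries and was listed at 0 in all 3 LY19WT libraries, on which its call rests (limma adjusted p of 0.00726). PIGK and PIGU, subunits of the transamidase that attaches proteins to the anchor, were higher by 0.60 and 1.02 (limma adjusted p of 0.0350 and 0.0495). Both calls were lost without LY19Y646F replicate 2 or 3 or any 1 of the LY19WT libraries, with adjusted p up to 0.115 for PIGK and 0.148 for PIGU, so the list then held 2 higher calls. The lower calls were then 1, without PIGC, except without LY19WT replicate 1, where they stayed at 2.

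Of the 6 tested ligands, sheddases and glycan enzymes, 3 were higher and 1 lower, with a median change of 0.12, and 2 were lower without LY19Y646F replicate 1. ST6GAL1, which makes the sialylated glycans that CD22 binds, averaged 128 ± 15.6 FPKM in LY19Y646F and 20.0 ± 2.73 FPKM in LY19WT (SD, n = 3 each; limma adjusted p of 1.50e-04). SEMA4D, which encodes the CD72 ligand CD100, was listed at 0 in all 3 LY19Y646F libraries, against 14.8, 12.9 and 16.7 FPKM in LY19WT libraries (limma adjusted p of 3.63e-05). The authors' deposited table, however, gives SEMA4D 4.12 FPKM in LY19Y646F and 18 FPKM in LY19WT, so a level of 0 in LY19Y646F is not common to both sources. ADAM17, a sheddase, was higher by 0.50 (limma adjusted p of 0.0271), a call lost without LY19Y646F replicate 2 or 3 or LY19WT replicate 1 or 2, with adjusted p up to 0.0878. SIGLEC10, given above, was the other member called higher.

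Membrane complement regulators bear on how antibodies such as rituximab kill cells. CD55, the only 1 of 4 tested in its own rows, measured 15.6, 22.4 and 22.7 FPKM in LY19Y646F libraries and 17.8, 20.1 and 20.2 FPKM in LY19WT libraries, and did not pass (limma adjusted p of 0.88). With merged rows counted, CD59 was higher, at a mean of 10.5 FPKM in LY19Y646F and 3.12 FPKM in LY19WT (limma adjusted p of 0.00264), and CR1 lower, at 0.0478 FPKM in LY19Y646F and 4.19 FPKM in LY19WT (3.70e-04). CD46 averaged 47.5 FPKM in LY19Y646F and 46.4 FPKM in LY19WT and did not pass (limma adjusted p of 0.92).

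Of 11 tested regulators known to act on these antigen genes, most of them transcription factors, 3 were higher and 2 lower, with a median change of 0.21. Without replicate 1 of both lines 2 were higher and 4 lower. IRF8 measured 131, 207 and 249 FPKM in LY19Y646F libraries, against 0.250, 0.251 and 0.201 FPKM in LY19WT libraries (limma adjusted p of 3.63e-05). EBF1, a B lineage factor, was lower, at 5.61, 5.11 and 4.89 FPKM in LY19Y646F libraries, against 44.6, 43.4 and 42.5 FPKM in LY19WT libraries (limma adjusted p of 3.59e-05). IKZF3 averaged 30.2 ± 7.83 FPKM in LY19Y646F and 0.0133 ± 0.0118 FPKM in LY19WT (SD, n = 3 each; limma adjusted p of 5.91e-05), whereas the authors' deposited table gives it 3.99 FPKM in LY19Y646F. NOTCH2, a receptor whose activation induces FCER2, fell by 2.15 on the log2 scale (limma adjusted p of 2.83e-04), and IKZF1 rose by 1.37 (0.0127), a call lost without LY19WT replicate 3 (0.0502) and without replicate 1 of both lines (0.0783). With merged rows counted, POU2F2, which encodes the octamer-binding factor OCT2, averaged 29.4 FPKM in LY19Y646F and 0.111 FPKM in LY19WT (limma adjusted p of 4.77e-05), and PAX5 averaged 27.2 FPKM in LY19Y646F and 99.6 FPKM in LY19WT (0.00368).

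**Figure D4:**
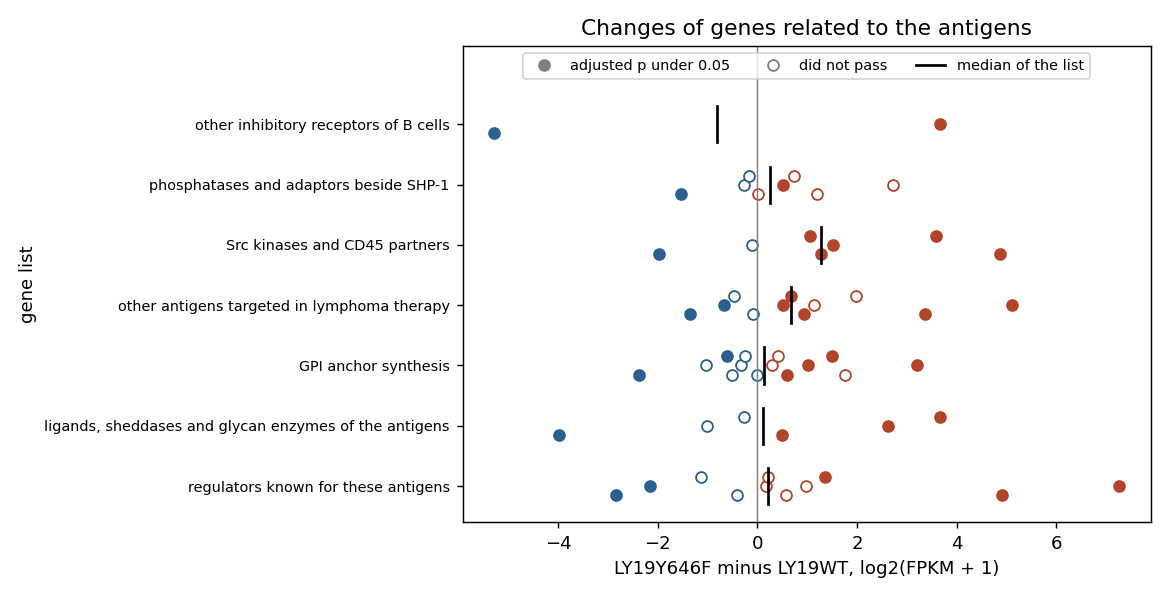
Change of each tested gene in 7 lists of genes related to the antigens, LY19Y646F minus LY19WT on the log2(FPKM + 1) axis, with filled points for an adjusted p under 0.05, red above 0, blue below 0 and a bar at the list's median. Src kinases and CD45 partners have the highest median, 1.28, and every list has called genes on both sides of 0.

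The genes with the most similar levels over the 6 libraries were found by the root mean square difference in log2(FPKM + 1) among 10278 tested genes. NCOA3, PRDM10 and RGS13 were nearest to PTPRC, at differences of 0.45 to 0.52 on that scale. HIPK1, EPC1 and SAMHD1 were nearest to CD72 (0.10 to 0.17), and PRDM15, RELB and TPCN1 to PTPN6 (0.28 to 0.36). NDUFA10, AC097523.1 and ERP29 were nearest to CD22 (0.15 to 0.20), and HMGB2, SRP9P1 and RPL29 to CD52 (0.42 to 0.46). RP11-640N20.6, S100A10 and MGME1 were nearest to MS4A1 (0.26 to 0.40), and S100A10 averaged 131 FPKM in LY19Y646F and 0.0273 FPKM in LY19WT.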

How the data were processed

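Single-end reads of stranded polyadenylated RNA libraries were aligned with STAR 2.5.3a and assembled with Cufflinks 2.2.1 on hg19, and the lines were compared with Cuffdiff 2.2.1, per the submitters' processing notes. The deposited values are FPKM per library, scaled by the authors to transcript length and mapped fragments. The authors' deposited Cuffdiff table gives mean FPKM and a log2 fold change per gene. Loci were assembled per library, so rows can merge neighbouring genes: the main fit leaves out 5958 symbols that in some library had a failed row or shared one with another protein-coding gene. Genes averaging 0.5 FPKM or more were tested with limma 3.58.1 (trend, R 4.3.3) on log2(FPKM + 1), which understates changes of low genes. Groups and replicate numbers came from the sample titles. Transcript GC and gene types came from GENCODE 29. Python 3.11.15, pandas 2.3.3, numpy 2.4.6 and matplotlib 3.10.9 were used for the joins and plots.

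The members and lists were chosen with earlier results of these data known. Named genes were all 9 members, the 4 smallest adjusted p of each list, CD79A, CD79B, CD37, CD38 and ST6GAL1, and the 3 nearest genes of each tested member. Genes of the sex chromosomes were left out of that search after the data were seen. Other called or shared-row genes of the lists were also named after their values were seen. Some listed genes are not reported here.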

Additional observations from a re-analysis of the deposited data

How the results depend on the processing

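Every call of MS4A1, CD52, CD72, PTPRC and PTPN6, and the lack of one for CD22, held under each alternative run. Log2 changes ranged from 6.46 to 9.03 for MS4A1, 4.0 to 4.39 for PTPRC, 1.54 to 2.17 for PTPN6, 0.78 to 1.03 for CD72, -1.73 to -1.29 for CD52 and 0.16 to 0.51 for CD22. The count of called genes, 3563, was 5781 with library weights, and 2783 to 4064 with 1 library left out; the cause was not tested. The lists held 31 called genes, and 25 to 33 with 1 library left out. The direction of CD55 reversed without LY19Y646F replicate 2 (-0.037), LY19Y646F replicate 3 (-0.045) or LY19WT replicate 1 (-0.013), around a difference that did not pass, and CD55 ranged from -0.045 to 0.21 with 1 library left out. CD46 reversed with quantile scaling (-0.12), median-ratio scaling (-0.017), without LY19Y646F replicate 3 (-0.072), without LY19WT replicate 1 (-0.030) and with the GC correction, blocked or not (-0.036). Replicate number as a block gave 3863 calls, changed no member's call, and made CSK a call (adjusted p of 0.012), and with the GC correction it made CD79A one (1.35, adjusted p of 0.0478). It also gave 4 lower calls among regulators and 2 among ligands, sheddases and glycan enzymes, in place of 2 and 1. Deviations from the line means correlated at 0.263, 0.0983 and 0.137 between same-numbered libraries, and each library correlated best with its own number. The labels name no pairing. Alternatives chosen after seeing the data gave 4597 calls without replicate 1 of both lines, 4139 with a GC correction and 3956 with that correction and the block. For 41 list genes named beside the members, 739 of 798 alternatives kept direction and side of the threshold, 42 lost a call, 8 gained one and 9 reversed. All reversals were of CD55 or CD46, neither called. Leaving out a library of 3 leaves few degrees of freedom, and depth is unknown, so nothing is said about how low a level could be detected.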
